A study of Mus musculus with 8 samples.

Results

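The stiffness response of hepatocytes was compared between wild-type and Yap/Taz knockout cells by the interaction of genotype and stiffness, that is, the change from the soft to the stiff hydrogel in knockout cells minus the same change in wild-type cells. All 8 libraries of the series and every gene that passed a filter on low counts entered the comparison, which left 14279 of 56748 listed genes. RNA was sequenced from mouse primary hepatocytes cultured for 24 h on collagen-coated hydrogels of 1 kPa (soft) or 20 kPa (stiff), with 2 libraries in each of the 4 groups. Every mouse was a C57BL/6J animal with floxed alleles of both genes (Yapfl/fl; Tazfl/fl). Knockout cells came from mice injected with AAV8-TBG-Cre, a virus in which the hepatocyte-directed TBG promoter drives Cre, and the cells called wild type came from mice that received AAV8-TBG-Null and kept both floxed genes intact. The study's methods add a ROSA26-LSL-tdTomato reporter to this strain, which Cre switches on, so the deletion and the presence of Cre and reporter cannot be told apart here. The mice were 7 to 8 weeks old when the virus was given, and hepatocytes were isolated 10 days later. The design text gives female mice, while the growth protocol and the study's methods give male mice. Xist was counted 4818 to 8443 times in every library, and the Y-linked genes Ddx3y, Kdm5d, Eif2s3y and Uty had 0 counts in all of them. These counts go with the female label. Nothing in the labels says that the 2 libraries of a group came from separate animals or cultures, so the p-values measure only the spread between these libraries, which may be technical.

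YAP and TAZ are transcriptional co-activators that bind DNA through TEAD factors. The Hippo kinases hold them in the cytoplasm, and tension in the actin cytoskeleton on a rigid substrate lets them enter the nucleus, where they raise genes of matrix, cytoskeleton and proliferation. In the normal liver their activity in hepatocytes is low, and it rises when the tissue stiffens. An interaction asks whether a gene responded to stiffness to a different extent without the 2 co-activators, and the order of the 4 group levels then shows where the knockout cells lie relative to wild-type cells on each substrate.

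Library totals were between 18324083 and 26442310 counts. The first principal component held 66.4% of the variance and the second 8.83%. The first set the wild-type stiff libraries apart, with scores of −67.2 and −67.3 against −0.21 and 1.41 in wild-type soft and 32.2 to 34.1 in knockout libraries. Mitochondrial genes took 2.75 and 2.77% of the counts in wild-type stiff and 3.20 to 3.68% in the other 6 libraries, the same division as that of the called interactions, and their part in the result was not tested. Albumin took 8.01 to 8.55% in wild-type and 5.54 to 5.61% in knockout libraries. Levels are given in CPM, the count scaled to a common library size by TMM, with a value for each library of a group. Differences are log2 values with their standard errors from edgeR's quasi-likelihood fit, and p-values were adjusted by Benjamini-Hochberg over all genes tested. A gene was called at an adjusted p under 0.05 with an absolute log2 difference over 0.5.

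Of the deleted genes, Yap1 was at 99.8 and 95.5 CPM on soft and 140 and 135 CPM on stiff hydrogels in wild-type cells, against 29.2 and 31.8 CPM and 28.4 and 31.3 CPM in knockout cells. Wwtr1, which encodes TAZ, was at 42.5 and 41.5 CPM (soft) and 63.9 and 65.2 CPM (stiff) in wild-type cells and between 13.7 and 16.6 CPM in the 4 knockout libraries. All knockout libraries lay below all wild-type libraries for both genes, as the labels state. The counts cover the whole gene, so transcripts that lack only the floxed exons, and RNA of cells without Cre, are still counted. Both genes were higher in wild-type cells on the stiff hydrogel, by 0.49 ± 0.06 (SE) for Yap1, which falls under the fold threshold, and by 0.62 ± 0.07 for Wwtr1, and neither was called between the knockout groups. Their interactions were −0.52 ± 0.09 (adjusted p = 0.000253) for Yap1 and −0.76 ± 0.11 (adjusted p = 4.19e-05) for Wwtr1. The Yap1 interaction was −0.46 without knockout soft replicate 2 and −0.45 without knockout stiff replicate 1, and under the fold threshold in both.

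The stiffness response differed between the genotypes for 2405 genes, 16.8% of those tested. For 1233 genes (8.64%) the change was more positive in knockout cells and for 1172 (8.21%) more negative. Which direction held more genes depended on the scaling and the tool, since RLE size factors gave 1190 positive and 1214 negative calls and DESeq2 978 and 1029. An unadjusted p under 0.05 was found for 5562 genes. DESeq2 called 2007 genes, of which 1987 were among the 2405, and limma voom called 2365, of which 2318 were. Among the called genes, 1040 had an interaction over 1 and 336 over 2 in absolute log2.

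**Figure D1:**
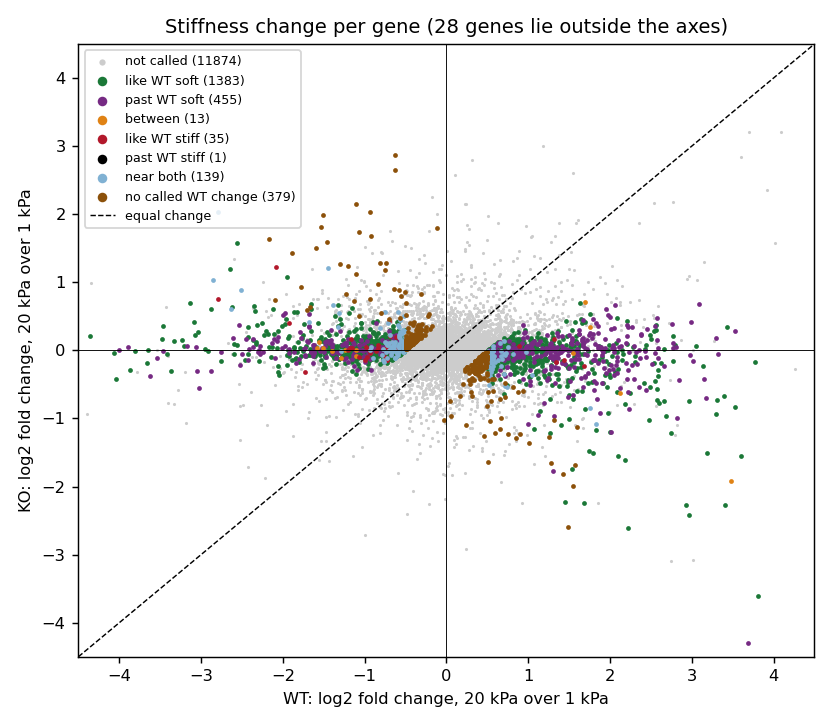
Log2 fold change from soft to stiff hydrogels in knockout cells (vertical) against wild-type cells (horizontal), 1 point per gene tested. Colours give the level class of the 2405 genes called by the interaction, and grey points are the other genes. The coloured points stretch along the horizontal axis, and 28 genes lie outside the axes, which end at 4.5.

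The interaction consisted almost wholly of the wild-type response. The stiff hydrogel changed 2754 genes (19.3%) in wild-type cells and 3 genes (0.0210%) in knockout cells. The latter were Psme2, Psme2b and Mup16, chosen here after their values were seen, and 54.7%, 63.6% and 87.4% of their transcript windows occur in another gene. Among the 2405 genes, the median absolute change was 0.85 in wild-type and 0.10 in knockout cells, and the wild-type change was the larger in 96.2% of them. Over all genes tested the median absolute change was 0.27 in wild-type and 0.09 in knockout cells. Across the 14279 genes, which are not independent replicates, the knockout change followed the wild-type change with a slope of −0.02 through the origin and a Pearson r of −0.05. The wild-type and knockout changes share no library. The 2 wild-type stiff libraries lay outside the range of the other 6 libraries in 2258 of the called genes, above them in 1110 and below them in 1148. Over all genes tested they did so in 52.0%, and the interaction selects for this pattern, so the count describes the called genes and tests nothing.

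The genotypes differed mainly on the stiff substrate. Knockout against wild type was called for 952 genes (6.67%) on soft and for 4103 genes (28.7%) on stiff hydrogels. Of the 2405 genes, 1691 were called between the genotypes on stiff hydrogels only, 420 on both substrates, 58 on soft only and 236 on neither.

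Levels of the knockout cells were then placed against the wild-type groups. Since nearly no gene was called between the knockout groups, the mean of both was compared with wild-type soft and with wild-type stiff, at the same thresholds. Of the 2026 called genes whose wild-type change was itself called, 1383 were like wild-type soft (called against stiff and not against soft), 455 lay past wild-type soft on the side away from stiff, 13 lay between both, 35 were like wild-type stiff, 1 lay past wild-type stiff and 139 were called against neither. The remaining 379 genes had no called wild-type change. A level that was not called against a group is not shown to equal it. The classes use the same libraries as the interaction and are counts without a test. Without wild-type soft replicate 1, 77 genes were like wild-type stiff in place of 35, and without wild-type stiff replicate 1, 85 were called against neither in place of 139.

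Genes that rose with stiffness in wild-type cells lay past wild-type soft more often than genes that fell. Of the 995 called genes that rose, 631 were like wild-type soft and 296 (29.7%) lay past it, and of the 1031 that fell these counts were 752 and 159 (15.4%). The difference between these shares was not tested, because genes are not replicates. The split also depends on the rule. With a position cut at −0.25 in place of the called contrasts, 877 genes were like wild-type soft and 964 lay past it. With library size as the only scaling, 261 genes that rose and 192 that fell lay past it, with a shift of the median of all genes of 0.06 between the knockout mean and wild-type soft against 0.00 under TMM.

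Position on the fitted log2 scale from wild-type soft (0) to wild-type stiff (1) gave the knockout level itself without a threshold. The genes it was summarised over still had to be called between the wild-type groups. The knockout mean had a median position of −0.23 over the 2754 genes changed in wild-type cells, with quartiles of −0.48 and 0.02, and it was under 0 in 72.8% of them. The median was −0.30 for the 1432 genes that rose and −0.17 for the 1322 that fell. Wild-type soft enters both parts of this ratio, and without wild-type soft replicate 1 the median over all of these genes was −0.17.

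**Figure D2:**
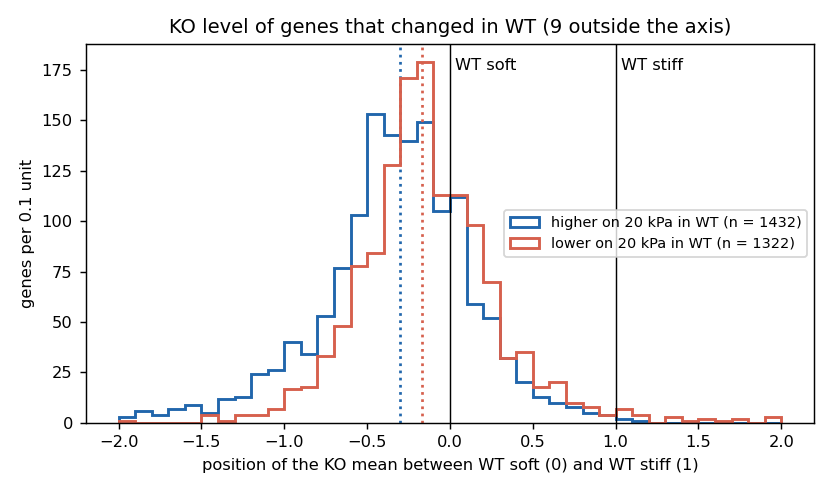
Number of genes (vertical, per 0.1 unit) by the position of the knockout mean between wild-type soft (0) and wild-type stiff (1), for genes that rose (blue, n = 1432) or fell (red, n = 1322) on stiff hydrogels in wild-type cells. Dotted lines mark the medians, −0.30 and −0.17, both on the left of wild-type soft, and 9 genes lie outside the axis.

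The order of the 4 fitted levels showed the same arrangement. Of the 24 possible orders, 4 held 64.9% of the called genes and 47.0% of all genes tested. In 474 genes the order from low to high was knockout stiff, knockout soft, wild-type soft, wild-type stiff, and in 335 the knockout groups were exchanged. The mirror images of these orders, with wild-type stiff lowest, held 472 and 281 genes. These orders hold 10.8%, 12.1%, 12.9% and 11.2% of all genes tested, so the last was about as frequent among the called genes (11.7%) as among all genes. Wild-type soft was the lowest group in 169 called genes (7.03%, against 16.2% of all genes tested) and the highest in 293 (12.2% against 16.3%). The interaction was computed from the same levels, so these shares are a description.

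The sequences of 3 promoters are shown because the named targets of YAP/TAZ moved together and TEAD factors recognise the letters GGAATG. All 3 hold a match and do not stand for the other targets, for which the share with a match is not given here. No promoter sequence was available for Ccn2. They run 5′ to 3′ from 250 bases before to 50 after the start given by RefSeq (GRCm38.p6), and capitals mark GGAATG or its reverse complement. The promoters are those of Ccn1 (chr3:145649936-145650235, minus strand), Ankrd1 (chr19:36119795-36120094, minus strand) and Amotl2 (chr9:102717554-102717853, plus strand).
Ccn1: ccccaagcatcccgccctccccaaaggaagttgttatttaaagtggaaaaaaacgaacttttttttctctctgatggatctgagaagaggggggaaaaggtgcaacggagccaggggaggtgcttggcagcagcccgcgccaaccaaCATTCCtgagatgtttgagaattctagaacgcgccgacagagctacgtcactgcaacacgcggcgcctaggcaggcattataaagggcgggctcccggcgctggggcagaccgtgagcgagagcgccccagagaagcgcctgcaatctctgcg
Ankrd1: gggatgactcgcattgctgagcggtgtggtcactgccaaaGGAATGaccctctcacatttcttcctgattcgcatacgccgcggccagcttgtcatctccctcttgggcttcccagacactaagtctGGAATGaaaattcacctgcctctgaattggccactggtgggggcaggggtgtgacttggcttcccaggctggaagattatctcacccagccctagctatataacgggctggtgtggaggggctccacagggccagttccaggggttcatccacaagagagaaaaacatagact
Amotl2: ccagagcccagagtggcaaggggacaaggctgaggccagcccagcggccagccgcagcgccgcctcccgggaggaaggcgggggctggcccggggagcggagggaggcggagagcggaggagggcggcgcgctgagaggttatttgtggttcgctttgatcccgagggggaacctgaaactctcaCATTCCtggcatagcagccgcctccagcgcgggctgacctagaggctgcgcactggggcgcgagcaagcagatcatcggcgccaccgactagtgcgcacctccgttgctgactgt
The match begins 103 bases before the start in Ccn1 and 65 bases before it in Amotl2, on the reverse strand of the gene in both, and 210 and 123 bases before it in Ankrd1, on the strand of the gene. RefSeq promoters of this length were matched for 10329 genes tested. GGAATG on either strand was found in 12.1% of them, in 17.7% (38 of 215) of genes that rose in wild-type cells and lay past wild-type soft in knockout cells, in 12.7% (63 of 495) of those that rose and were like wild-type soft, and in 9.73% (11 of 113) of those that fell and lay past it. TGANTCA, the letters recognised by AP-1, was found in 5.25% of all promoters matched and in 7.63% (79 of 1036) of genes like wild-type soft. Among genes past wild-type soft it was found in 8.37% (18 of 215) of those that rose and 4.42% (5 of 113) of those that fell. A match describes letters and is not a shown binding site, and no test was made of these shares.

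Most direct targets of YAP/TAZ lay past wild-type soft in knockout cells. Of 21 targets tested, 17 were called (81.0%, against 16.8% of all genes tested), and 15 of the 17 lay past wild-type soft. In 16 of the 17 the stiffness change was more negative in knockout cells. The median interaction of the list was −1.30, against 0.02 over all genes tested. These targets are known from the same co-activators and the list was drawn up with earlier results of these data known.

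Ccn2, a secreted matricellular protein, was at 41.7 and 38.4 CPM on soft and 399 and 402 CPM on stiff hydrogels in wild-type cells. In knockout cells it was at 14.3 and 12.4 CPM on soft and 12.8 and 13.2 CPM on stiff hydrogels. The wild-type stiff libraries stood far above the rest and the knockout libraries lay below wild-type soft on both substrates without overlap. The wild-type change of 3.32 ± 0.06 was absent in knockout cells (−0.05), for an interaction of −3.36 ± 0.10 (adjusted p = 7.07e-14). Knockout cells were already lower on the soft hydrogel, by 1.58 on the log2 scale.

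Ankrd1, a nuclear and sarcomeric ankyrin repeat protein, was at 23.1 and 22.2 CPM on soft, 200 and 204 CPM on stiff hydrogels in wild-type cells and at 6.83, 7.36, 5.43 and 5.09 CPM in the knockout libraries. Its interaction of −3.58 ± 0.12 (adjusted p = 3.66e-13) was the most negative of the list. Ccn1, the matricellular relative of Ccn2, was at 374 and 398 CPM on soft and 1271 and 1264 CPM on stiff hydrogels in wild-type cells, and between 123 and 136 CPM in knockout cells. For all 3 genes every knockout library was below every wild-type library, on either substrate. The interaction of Ccn1 was −1.70 ± 0.07 (adjusted p = 2.16e-12), and the knockout mean had a position of −0.92. In log2, not in CPM, it was thus nearly as far below wild-type soft as wild-type stiff was above it.

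Other targets followed. Amotl2, an angiomotin that restrains YAP in a feedback, had an interaction of −1.72, and Lats2, a Hippo kinase of the same feedback with 56.4% of its transcript windows shared with another gene, of −0.99. Myof (myoferlin, membrane repair) was at −2.59, Tgfb2 (a ligand of the TGF-beta receptors) at −2.40 and F3 (tissue factor, the start of coagulation) at −2.26. Each of these 5 lay past wild-type soft, while Axl (a receptor tyrosine kinase, −0.96) and Asap1 (an Arf GTPase-activating protein, −0.64) were like wild-type soft. Amotl1, Dock5, Arhgef17 and Nt5e were not called, and Rbms3 and Foxf2 did not pass the filter.

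Ptpn14 was the one called member with a positive interaction. This phosphatase, known to restrain YAP, was at 52.4 and 55.0 CPM on soft and 18.7 and 19.8 CPM on stiff hydrogels in wild-type cells, and at 106, 107, 111 and 112 CPM in the knockout libraries. It fell on stiff hydrogels in wild-type cells, was not called between the knockout groups and was higher in knockout than in wild-type cells on both substrates, with an interaction of 1.55 ± 0.08 (adjusted p = 1.02e-10). The position of −0.69 places it past wild-type soft from the other side.

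**Figure D3:**
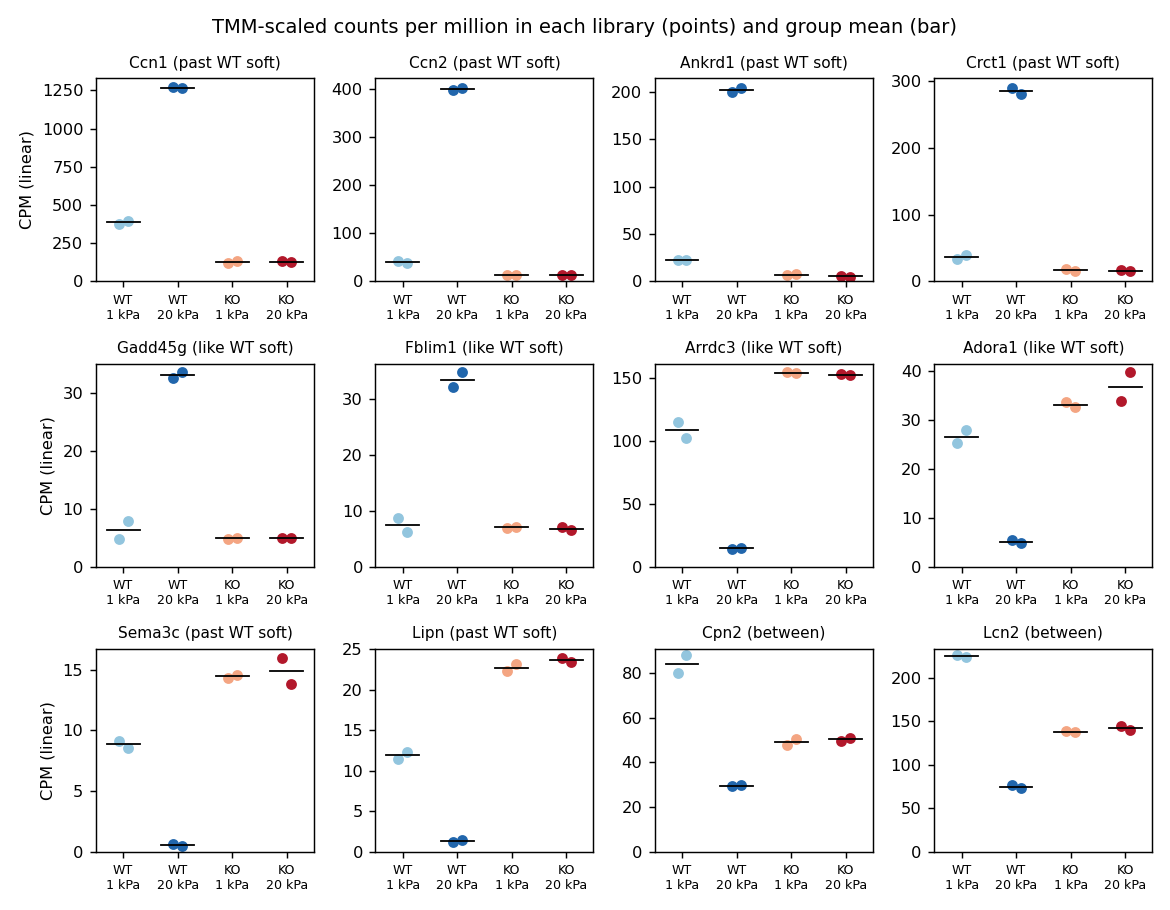
TMM-scaled CPM (vertical, linear axes from 0) of 12 genes in each library (points) with the mean of the 2 libraries of a group (bar). In the 4 genes of the top row the wild-type stiff libraries are highest and knockout libraries lie below wild-type soft. The genes of the middle row were classed as like wild-type soft, though all knockout points of Arrdc3 and Adora1 lie above wild-type soft. In the bottom row the knockout points of Sema3c and Lipn lie above wild-type soft and those of Cpn2 and Lcn2 between the wild-type groups.

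Among genes that rose in wild-type cells and lay past wild-type soft, the rule for named genes took Ankrd1, Ccn2 and Crct1. Crct1 was at 33.4 and 39.5 CPM on soft and 291 and 281 CPM on stiff hydrogels in wild-type cells and between 15.9 and 18.3 CPM in knockout cells (interaction −3.05 ± 0.12, adjusted p = 1.59e-12). The rule asks for a mean of at least 200 counts and little sequence shared with other genes, and more negative interactions, such as that of Krt19 below, occur outside it.

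The opposite class, lower on stiff hydrogels in wild-type cells and past wild-type soft in knockout cells, was led by Cpe, Sema3c and Lipn. Cpe, the carboxypeptidase that trims prohormones, was at 48.6 and 46.0 CPM on soft and 3.23 and 2.64 CPM on stiff hydrogels in wild-type cells, against 79.9, 81.9, 78.5 and 83.7 CPM in the knockout libraries. Its interaction of 4.01 ± 0.12 (adjusted p = 7.07e-14) was made of a wild-type fall by 4.01 and a knockout change of 0.00. Sema3c, a secreted guidance cue, was at 9.17 and 8.55 CPM on soft and 0.675 and 0.508 CPM on stiff hydrogels, and between 13.8 and 16.0 CPM in knockout cells (interaction 3.93 ± 0.26). Lipn, a lipase, was at 11.4 and 12.3 CPM, 1.16 and 1.47 CPM, and between 22.3 and 23.9 CPM (interaction 3.23 ± 0.19). In each of the 3 genes the wild-type stiff libraries were lowest and every knockout library exceeded every wild-type one.

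Genes like wild-type soft made up the largest class. Gadd45g, a stress-inducible regulator of growth arrest, was at 4.78 and 7.83 CPM on soft and 32.6 and 33.6 CPM on stiff hydrogels in wild-type cells and between 4.72 and 4.97 CPM in knockout cells (interaction −2.40 ± 0.25, adjusted p = 6.02e-07). Fblim1, a filamin-binding protein of focal adhesions, was at 8.63 and 6.11 CPM, 32.1 and 34.9 CPM, and between 6.47 and 7.16 CPM (interaction −2.22 ± 0.20). The knockout libraries of both genes lay within or beside the range of wild-type soft. Tssc4, a protein of spliceosome assembly, had an interaction of −2.12 ± 0.13.

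Among those that fell, Arrdc3, an arrestin-related adaptor for receptor trafficking, was at 115 and 102 CPM on soft and 13.9 and 14.9 CPM on stiff hydrogels in wild-type cells and between 152 and 154 CPM in knockout cells, with an interaction of 2.91 ± 0.09 (adjusted p = 9.51e-14). It stands at the edge of its class, since knockout soft exceeded wild-type soft by 0.50 in log2 and all knockout libraries lay above all wild-type soft ones. Hmga2, a chromatin architecture protein of fetal tissues, was at 41.1 and 35.0 CPM, 5.50 and 7.21 CPM, and between 45.5 and 52.2 CPM (interaction 2.68 ± 0.15). Adora1, the adenosine A1 receptor, was at 25.2 and 27.8 CPM, 5.40 and 4.83 CPM, and between 32.5 and 39.7 CPM (interaction 2.52 ± 0.15). In these 2 genes, too, all knockout libraries lay above all wild-type soft ones.

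Only 13 genes were placed between the wild-type groups, a class that asks for a difference over 0.5 from both and so depends on the rule. A position cut placed 156 genes between, and dropping the fold threshold placed 146. The genes called against neither group had a median position of 0.33. Lcn2, a siderophore-binding acute-phase protein, was at 226 and 224 CPM on soft and 77.0 and 72.9 CPM on stiff hydrogels in wild-type cells and at 139, 137, 145 and 140 CPM in the knockout libraries. Cpn2, a subunit of the plasma carboxypeptidase N, was at 80.1 and 87.9 CPM, 29.5 and 29.7 CPM, and between 47.8 and 50.9 CPM. Saa4, a constitutive serum amyloid, was at 54.9 and 55.9 CPM, 21.9 and 23.5 CPM, and between 31.2 and 35.0 CPM. The 4 knockout libraries fell in the gap between the wild-type groups in all 3 genes, which are secreted by the liver. The interactions were 1.63 ± 0.07, 1.54 ± 0.09 and 1.18 ± 0.10, with adjusted p-values of 4.84e-12, 4.48e-10 and 4.90e-08. No gene that rose in wild-type cells and lay between met the rule for naming.

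Like wild-type stiff were 6 genes that rose and 29 that fell in wild-type cells. Fasn, fatty acid synthase, chosen here after its values were seen, was at 1071 and 1173 CPM on soft and 496 and 502 CPM on stiff hydrogels in wild-type cells, and at 408, 429, 479 and 459 CPM in the knockout libraries. All knockout libraries lay below both wild-type stiff libraries, though the knockout mean was not called against wild-type stiff. Fasn had an interaction of 1.33 ± 0.06 (adjusted p = 1.66e-11) and a position of 1.15. The alcohol dehydrogenase Adh1, the protease inhibitor Serpina3n, the bile acid carrier Slco1b2 and the immediate early genes Fos and Fosb belonged to the same class. Proz, the vitamin K-dependent plasma protein Z, was alone in lying past wild-type stiff, at 101 and 108 CPM on soft and 68.5 and 63.6 CPM on stiff hydrogels in wild-type cells and between 41.0 and 44.4 CPM in knockout cells.

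In the 379 genes without a called wild-type change the sign of the change differed between the genotypes in 378. With a wild-type change mostly under the fold threshold and an interaction over it, the opposite sign is largely set by the rule, so this count is no trait of these genes. The median absolute change was 0.44 in wild-type and 0.19 in knockout cells, and 253 had an adjusted p under 0.05 for the wild-type change without reaching the fold threshold. Only 1, Psme2b, was called between the knockout groups. Zfp628, a zinc finger protein, was at 15.2 and 16.4 CPM on soft and 12.2 and 11.5 CPM on stiff hydrogels in wild-type cells, and at 13.7 and 13.0 CPM and 18.1 and 17.1 CPM in knockout cells (interaction 0.81 ± 0.15, adjusted p = 0.000495). Pinx1, a nucleolar inhibitor of telomerase, was at 13.4 and 12.5 CPM, 17.2 and 17.5 CPM, 13.2 and 11.8 CPM, and 9.13 and 9.68 CPM in the same order (interaction −0.83 ± 0.16, adjusted p = 0.000696). In both genes the libraries of the 2 substrates did not overlap in either genotype, and the knockout changes, 0.40 for Zfp628 and −0.41 for Pinx1, were not called. Casp8ap2 (−0.83), Mrps18c (−0.77), Klc4 (0.70) and Ap5b1 (0.70) were the others named by the rule. At the threshold itself, Nab2 was just inside with 0.50020 and Ypel2 just outside with 0.49976.

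**Figure D4:**
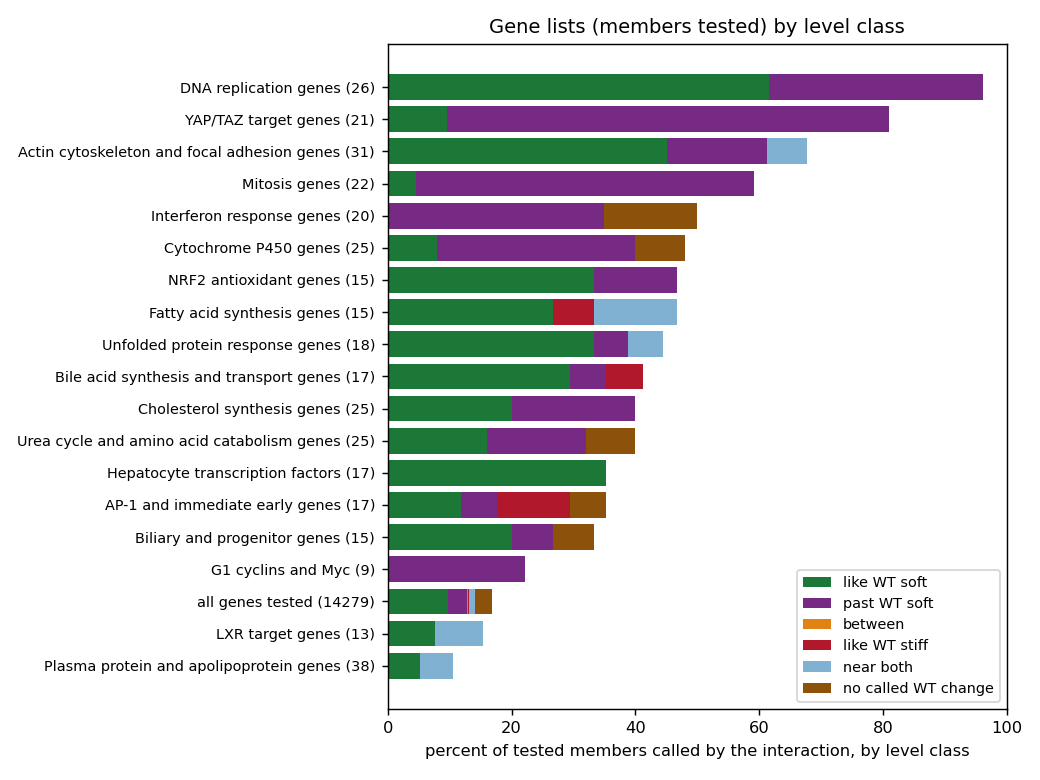
Share of the tested members of each list (number in parentheses) that were called by the interaction, as a horizontal bar from 0 to 100% divided by level class. DNA replication genes reach 96.2% and YAP/TAZ targets 81.0%, against 16.8% over all genes tested, and purple (past wild-type soft) fills most of the bars of YAP/TAZ targets and mitosis genes.

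Every called proliferation gene had a negative interaction. Of 26 DNA replication genes, which build and license the replication fork, 25 (96.2%) were called, all more negative in knockout cells. The median interaction of the list was −1.48. Over all genes tested, 16.8% were called, 8.64% positive and 8.21% negative, and these shares are the background for each list below. Mcm5, a subunit of the replicative helicase, was at 14.7 and 15.2 CPM on soft and 58.1 and 60.7 CPM on stiff hydrogels in wild-type cells, and between 9.85 and 11.6 CPM in knockout cells. Most of the list was like wild-type soft (16 genes) and 9 lay past it. Cdc45, a part of the active helicase, was at 1.46 and 1.22 CPM on soft and 5.79 and 4.93 CPM on stiff hydrogels in wild-type cells and between 0.515 and 1.64 CPM in knockout cells. It had the most negative interaction of the list, −2.90 ± 0.48 (adjusted p = 0.000139).

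Called mitosis genes lay mostly past wild-type soft. Of 22 tested, 13 (59.1%) were called, 12 of them past wild-type soft and only Cdc20 like it. All 22 interactions were negative, with a median of −1.56. Mki67, the Ki-67 antigen of cycling cells, was at 4.39 and 4.72 CPM on soft and 18.6 and 16.6 CPM on stiff hydrogels in wild-type cells and between 1.73 and 2.49 CPM in knockout cells (interaction −2.29 ± 0.27, adjusted p = 2.61e-06). The knockout libraries were below wild-type soft without overlap. Other members past wild-type soft were Ccnb1 (cyclin B1, −2.06), Plk1 (a mitotic kinase, −1.80) and Foxm1 (the transcription factor of G2 genes, −1.71). Their adjusted p-values were 0.0253, 0.0163 and 0.000568, and 38.05% of the transcript windows of Ccnb1 occur in another gene. Ccnb2, Aurka and Bub1 were among those not called. Among 9 G1 regulators, Ccnd1 and Ccnd3 were called (22.2%, near the 16.8% over all genes). Myc (−0.36), Cdkn1a (0.10) and the rest were not called. Ccnd1, the D-type cyclin, was at 18.5 and 21.3 CPM on soft and 68.6 and 70.8 CPM on stiff hydrogels in wild-type cells and between 7.45 and 8.65 CPM in knockout cells, for an interaction of −1.89 ± 0.15 (adjusted p = 1.51e-08).

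Called cytoskeletal genes were mostly negative. Of 31 actin and focal adhesion genes, 21 (67.7%) were called, 19 negative and 2 positive, 14 like wild-type soft and 5 past it. Cnn2, a calponin, was at 8.55 and 9.72 CPM on soft and 65.3 and 61.8 CPM on stiff hydrogels in wild-type cells and between 4.84 and 5.44 CPM in knockout cells (interaction −2.76 ± 0.17, adjusted p = 6.39e-10). Flna, the filamin that cross-links actin, was at 351 and 359 CPM on soft, 926 and 924 CPM on stiff hydrogels, and between 293 and 312 CPM in knockout cells. Vcl (vinculin, 0.62 ± 0.07) and the laminin receptor subunit Itga6 (0.56) ran the other way. Vcl was at 164 and 159 CPM on soft, 107 and 109 CPM on stiff hydrogels in wild-type cells and between 149 and 160 CPM in knockout cells.

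Biliary and progenitor genes were called in 5 of 15 tested, all negative. This is 33.3%, against 16.8% of all genes called and 8.21% called negative. Krt19, a keratin of bile duct cells, was at 1.81 and 2.44 CPM on soft and 21.0 and 20.1 CPM on stiff hydrogels in wild-type cells and between 0.429 and 0.845 CPM in knockout cells (interaction −3.12 ± 0.45, adjusted p = 3.22e-05). Sox9 (−0.07), Spp1 (−0.14) and Epcam (1.02 ± 0.79) were not called. The summed level of the cholangiocyte markers (sums of markers are in CPM of the raw library total, without TMM), of which 7 of 10 were tested and Cftr had 0 counts in every library, was 642 to 672 CPM in wild-type soft, 705 to 713 CPM in wild-type stiff and 438 to 462 CPM in knockout libraries. Most of this sum is Spp1 in every library (5978 to 14077 counts), so the sum does not describe the other cholangiocyte markers. The part of bile duct cells in the Krt19 result was not tested. In bulk RNA, fewer cells of a type and less RNA per cell cannot be told apart.

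Genes of cholesterol synthesis, the mevalonate and sterol pathway, were called in 10 of 25 (40.0%), all negative. Of these, 5 were like wild-type soft and 5 past it, and the list median was −0.35. Hmgcs1, the synthase that feeds the pathway, was at 194 and 188 CPM on soft and 358 CPM in both libraries on stiff hydrogels in wild-type cells and between 137 and 154 CPM in knockout cells (interaction −1.02). Fdps had the most negative interaction (−1.27 ± 0.31), which was −0.96 and not called without knockout soft replicate 2 (adjusted p = 0.0538), and 10.4% of its transcript windows occur in another gene. Sqle (−0.35), an epoxidase of the sterol branch, and Dhcr7 (0.43 ± 0.09, under the fold threshold) were not called.

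Fatty acid synthesis genes went the opposite way, with 7 of 15 (46.7%) called, all positive, and a list median of 0.79. Acaca, acetyl-CoA carboxylase, was at 306 and 297 CPM on soft and 115 and 108 CPM on stiff hydrogels in wild-type cells and between 331 and 357 CPM in knockout cells (interaction 1.46 ± 0.07, adjusted p = 1.63e-11), and 49.6% of its windows are shared with another gene. Mlxipl, the carbohydrate-responsive factor ChREBP, was at 124 and 145 CPM, 59.4 and 58.3 CPM, and between 161 and 191 CPM. These were like wild-type soft, as were Acly and Acacb, in contrast with Fasn above. Srebf1 (0.79) and Dgat2 (0.79) were called against neither wild-type group. The 13 LXR targets tested had 2 calls (15.4%, against 16.8% over all genes), Lpl (0.66) and Srebf1, and a list median of 0.45. Of the 13 interactions, 12 were positive and 1, that of Pltp (−0.17), was negative, against 7354 and 6925 over all genes tested. Abca1 (0.46, adjusted p = 0.000137), Nr1h3 (0.45, 0.00105) and Scd1 (0.42, 5.24e-09) were among those under the fold threshold. Abcg1 (0.75), Abcg5 (0.37) and Abcg8 (0.29) were not called, with adjusted p-values of 0.0911, 0.495 and 0.517.

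Bile acid synthesis and transport genes were called in 7 of 17 (41.2%), all positive, and 5 of the 7 were like wild-type soft. Abcb4, the canalicular phospholipid floppase, was at 612 and 599 CPM on soft and 178 and 181 CPM on stiff hydrogels in wild-type cells and between 715 and 742 CPM in knockout cells (interaction 1.74 ± 0.05, adjusted p = 7.07e-14). Abcc2, the canalicular conjugate exporter, was at 656 and 629 CPM, 240 and 232 CPM, and between 880 and 903 CPM. Baat (amino acid conjugation, 1.40) and Cyp8b1 (cholic acid formation, 1.29) were like wild-type soft as well, and Abcb11 (0.13), Slc10a1 (0.38) and Nr1h4 (−0.30 ± 0.11) were not called.

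Liver transcription factors were called in 6 of 17 (35.3%), all positive and all like wild-type soft. Hnf4a, the nuclear receptor that maintains hepatocyte identity, was at 379 and 365 CPM on soft and 186 and 193 CPM on stiff hydrogels in wild-type cells and between 414 and 437 CPM in knockout cells (interaction 0.98). Cebpa had the largest interaction, 1.06 ± 0.10 (adjusted p = 2.85e-07), followed by Prox1 at 1.02. Ppara (0.74), Foxa3 (0.68) and Onecut2 (0.53) were the others called, and Foxa1 (0.12) and Foxa2 (−0.01) were not.

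Cytochrome P450 genes were called in 12 of 25 (48.0%), 10 positive and 2 negative, and 8 of the 12 lay past wild-type soft. In 6 of the 12, all of the Cyp2a, Cyp2c or Cyp2d families, over 10% of the transcript windows occur in another gene, so their counts are uncertain. Cyp2e1, an ethanol-inducible enzyme of pericentral hepatocytes, was at 246 and 223 CPM on soft and 70.4 and 69.5 CPM on stiff hydrogels in wild-type cells and at 484, 470, 473 and 496 CPM in the knockout libraries (interaction 1.77 ± 0.07, adjusted p = 1.96e-12). Cyp1a2, a pericentral enzyme induced through the aryl hydrocarbon receptor, was at 248 and 261 CPM, 107 and 104 CPM, and between 590 and 653 CPM. Cyp2f2, an enzyme of periportal hepatocytes, ran the other way at 179 CPM in both libraries on soft, 337 and 333 CPM on stiff hydrogels, and between 76.7 and 83.9 CPM in knockout cells (interaction −0.84 ± 0.07, adjusted p = 2.19e-08). In all 3 genes the knockout libraries lay outside the range of both wild-type groups.

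The remaining metabolic lists were mixed or near the background. Urea cycle and amino acid catabolism genes had 10 calls of 25 (40.0%), 5 in each direction. They ran from Aass (lysine degradation, −1.31 ± 0.16) to Hgd (tyrosine degradation, 1.06 ± 0.09). Plasma protein and apolipoprotein genes had 4 calls of 38, or 10.5% against 16.8% over all genes. The highest of these was the fetuin gene Ahsg, at 2347 and 2444 CPM on soft and 1422 and 1405 CPM on stiff hydrogels in wild-type cells and between 2566 and 2643 CPM in knockout cells (0.78 ± 0.04, adjusted p = 9.35e-11). Alb (−0.09), Ttr (−0.04) and Apob (0.29) were not called.

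Stress lists were called mostly in the positive direction. NRF2 antioxidant genes had 7 calls of 15 (46.7%), 6 positive. Slc7a11, the cystine importer, was at 415 and 395 CPM on soft and 98.8 and 103 CPM on stiff hydrogels in wild-type cells and between 580 and 600 CPM in knockout cells (interaction 2.04 ± 0.06, adjusted p = 3.42e-14), while G6pdx had −0.54 ± 0.09 and Hmox1 (−0.06) was not called. Unfolded protein response genes had 8 calls of 18 (44.4%), all positive, among them Xbp1 (0.95) and its activating nuclease Ern1 (1.06). Trib3, a pseudokinase induced by this response, was at 102 CPM in both libraries on soft and 55.2 and 45.9 CPM on stiff hydrogels in wild-type cells and between 187 and 203 CPM in knockout cells (1.10 ± 0.09). Hspa5 (0.21), the main chaperone of the pathway, and Atf4 (0.30) were not called.

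Interferon response genes were called in 10 of 20 (50.0%), all negative. Ifit2, an antiviral RNA-binding protein, was at 5.16 and 5.61 CPM on soft and 18.3 and 17.6 CPM on stiff hydrogels in wild-type cells and between 1.43 and 2.20 CPM in knockout cells (interaction −1.51 ± 0.29, adjusted p = 0.000706). Isg15, a ubiquitin-like modifier, was at 33.3 and 34.6 CPM, 92.1 and 81.5 CPM, and between 12.3 and 16.3 CPM. All 7 called members with a called wild-type change lay past wild-type soft, and Psmb8 and Ifi44 were among those with no called wild-type change. Irf7 (−0.29) and Irf9 (0.21 ± 0.09) were not called. Of the 17 immediate early genes tested, 35.3% were called, 3 in each direction, from Ier3 (−0.91 ± 0.07) to Klf4 (1.48 ± 0.13). Jun (0.15) and Egr1 (0.30) were not called.

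Summed markers of other liver cells followed the same division. Of 31 tested markers of stellate, endothelial and Kupffer cells, 13 (41.9%) were called, all positive, against 16.8% of all genes called and 8.64% called positive. Of the 31, 5 had a negative sign, none of them called: Col1a1 (−0.64), Acta2 (−0.51), Tek (−0.10), Oit3 (−0.17) and Ptprc (−0.76). The summed level of the stellate cell markers was 36.8 to 36.9 CPM in wild-type soft, 24.4 to 26.3 CPM in wild-type stiff, 54.4 to 55.6 CPM in knockout soft and 55.9 to 58.8 CPM in knockout stiff libraries. Endothelial markers summed to 88.8 to 91.0, 66.1 to 68.5, 116 to 118 and 119 to 129 CPM in the same order, and Kupffer cell markers to 92.2 to 94.5, 64.6 to 69.4, 138 to 142 and 140 to 142 CPM. Each of the 3 sums was lowest in wild-type stiff and highest in knockout libraries, the order of the genes that fell and lay past wild-type soft. The hepatocyte markers, all 8 tested and 3 of them called (Asgr1, Fgb and Hnf4a, all positive), summed to 90747 to 93652 CPM in wild-type and 65468 to 66159 CPM in knockout libraries, so the labelled cell type was present throughout. Most of this sum is Alb, at 8.01 to 8.55% of the counts in wild-type and 5.54 to 5.61% in knockout libraries. The sum therefore does not describe the other hepatocyte markers. The part of stellate, endothelial and Kupffer cells in the positive interactions was not tested.

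**Figure D5:**
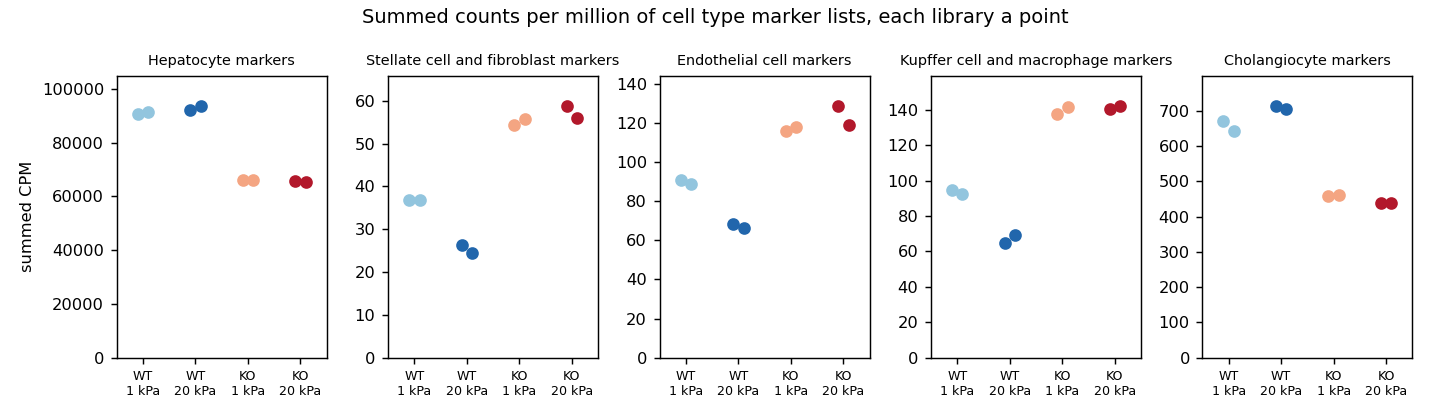
Summed CPM (vertical, linear axes from 0) of the marker lists of, from left to right, hepatocytes, stellate, endothelial, Kupffer and bile duct cells, with 1 point per library in the 4 groups. The middle 3 panels are lowest in wild-type stiff, for example 24.4 and 26.3 CPM for stellate cell markers, and highest in knockout libraries.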

How the data were processed

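Expression was measured by poly(A) RNA sequencing in 8 libraries. Per the authors, read pairs were aligned by HISAT2 (2.0.5 in the submitters' processing notes) and assigned to genes by featureCounts, and the deposited table gives raw counts for 56748 genes without normalization. The counting rules for multi-mapping reads and for strand are not given in the sources used here, so near-identical and overlapping genes are uncertain. The processing notes name mm9, and only 329 of 14116 tested genes share start and end with the GRCm38 annotation, so positions of the deposited table are not printed.

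Genes were filtered by filterByExpr, scaled by TMM (factors 0.978 to 1.02) and fitted in edgeR 4.0.16 (R 4.3.3) with a coefficient per group (4 residual degrees of freedom, common biological coefficient of variation 0.0542). DESeq2 1.42.0, as in the study's own approach, and limma 3.58.1 (voom) were alternatives, as were other scalings, filters, thresholds, a replicate block and each library left out. Contrasts were called at an adjusted p under 0.05 and an absolute log2 difference over 0.5. Standard errors are the log2 difference divided by the root of the quasi-likelihood F. CPM were computed here from the counts. The upper limit for a gene with 0 counts is 3 counts (95% confidence), which is 0.113 to 0.164 CPM and covers counting error only. Replicates differed beyond counting noise in every group (chi-square per degree of freedom 2.62 to 5.45). Sequence shared between genes was measured as the percentage of windows of 64 bases in the longest GENCODE M21 transcript that recur in another gene.

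Named genes are the deleted genes and reference targets, the 3 genes with the largest absolute interaction in each of 3 classes and each wild-type direction and in each direction without a called wild-type change (mean of at least 200 counts, protein coding, at most 10% shared windows), the ends of each gene list and the genes at the threshold. The genes of gene lists and other genes given with values were added to show a list or class. A few genes are not reported here. Members and lists were chosen with earlier results of these data known. On simulated counts with 200 of 14279 genes changed, edgeR recovered 77.0% of interactions of 1 in log2 with 16 other genes called, and DESeq2 71.0% with 7. The changes were placed in wild-type stiff only, equally in both directions, in genes with a mean of at least 10 counts. Far more genes were called in the data, so these rates need not carry over. Python 3.11.15 with matplotlib 3.10.9 made the figures.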

Additional observations from a re-analysis of the deposited data

Results flagged for a closer look

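The response to stiffness differed between wild-type and knockout cells by the interaction test (edgeR quasi-likelihood, adjusted by Benjamini-Hochberg) for 2405 genes, with a more positive change in knockout cells for 1233 and a more negative one for 1172. The values below are the knockout change minus the wild-type change in log2.

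Among the named genes, interactions of −2 or lower were those of Ankrd1 (−3.58), Ccn2 (−3.36), Krt19 (−3.12), Crct1 (−3.05), Cdc45 (−2.90), Cnn2 (−2.76), Gadd45g (−2.40), Mki67 (−2.29), Fblim1 (−2.22), Tssc4 (−2.12). Smaller negative interactions were those of Ccnd1 (−1.89), Ccn1 (−1.70), Ifit2 (−1.51), Aass (−1.31), Fdps (−1.27), Ier3 (−0.91), Cyp2f2 (−0.84), Casp8ap2 (−0.83), Pinx1 (−0.83), Mrps18c (−0.77), Wwtr1 (−0.76), G6pdx (−0.54), Yap1 (−0.52). Positive interactions of 1.5 or higher were those of Cpe (4.01), Sema3c (3.93), Lipn (3.23), Arrdc3 (2.91), Hmga2 (2.68), Adora1 (2.52), Slc7a11 (2.04), Cyp2e1 (1.77), Abcb4 (1.74), Lcn2 (1.63), Ptpn14 (1.55), Cpn2 (1.54). Smaller positive ones were those of Klf4 (1.48), Acaca (1.46), Saa4 (1.18), Trib3 (1.10), Hgd (1.06), Cebpa (1.06), Zfp628 (0.81), Ahsg (0.78), Ap5b1 (0.70), Klc4 (0.70), Vcl (0.62), Nab2 (0.50). With 2 libraries in a group, no library could be compared with the rest of its group for an unusual distance.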

How the results depend on the processing

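The number of genes called by the interaction followed the fold threshold. Without one it was 4192 (2180 positive, 2012 negative), with 2114 genes like wild-type soft and 1405 past it (751 that rose, 654 that fell in wild-type cells). Over 1 in log2 it was 1040 (487 and 553), with 678, 139 (111 and 28) and 159 without a called wild-type change. With glmTreat against 0.5 it was 1057 (505 and 552), with 801, 160 (114 and 46) and 53. The knockout position was −0.18, −0.26 and −0.27 in the same order. A position cut gave 877 genes like wild-type soft, 964 past it (553 and 411) and 156 between the wild-type groups. DESeq2 left 249 genes without a called wild-type change. The slope of the knockout on the wild-type change was 0.0076 with no filter on low counts and −0.0092 where every library had to hold 10 counts or more. The cause of these moves was not tested, except that a stricter threshold leaves fewer genes by its construction.

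With 1 library left out, its partner was assumed to vary like the other groups. Calls were then between 2111 and 2451, the position between −0.23 and −0.17 and the slope between −0.046 and −0.0081. Genes between the wild-type groups numbered 8 to 14, those like wild-type stiff 27 to 77 and those near both 85 to 194. Nr1i3, at under 1 CPM and not called, took values from −1.32 to 0.37, with 0.27 and 0.13 without knockout soft replicate 2 and knockout stiff replicate 1. Over 21 alternatives of 61 named genes, 1224 of 1279 values kept direction and call, 40 lost the call, 12 gained it and 3 changed sign, all of Nr1i3. Nab2 lost its call in 15.

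A replicate block by number across groups gave 2330 calls and a block within genotype 2350. Same-numbered libraries did not deviate together (correlations from −0.10 to 0.04), so the numbers were not taken to pair samples. The scalings moved the total by at most 3 genes, but RLE size factors gave 1190 positive and 1214 negative calls in place of 1233 and 1172, and DESeq2 978 and 1029, so the larger direction turned. Restricting to genes with at most 10% shared windows, chosen after seeing the data, left 2144 called genes, 1258 like wild-type soft and 415 past it. Depth limits genes near 0.113 to 0.164 CPM, the level of 3 counts.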
